A study of Mus musculus with 8 samples.

Results

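The sodium pump beta subunits Atp1b1, Atp1b2 and Atp1b3 and the plasma membrane calcium pumps Atp2b1, Atp2b2, Atp2b3 and Atp2b4 were examined in bulk RNA-seq data from the whole adult mouse brain. The members were chosen by their gene symbol, and all 7 were found among the 24343 genes of the table. The samples were whole brains of 3 C57BL/6NCrl mice, mouse 1, mouse 2 and mouse 3, aged 56 to 62 days, with no treatment, transgene or second condition. Mice 1 and 2 had 3 libraries each and mouse 3 had 2, so that 8 libraries were available, and nothing stated whether the libraries of a mouse came from separate RNA preparations. The values are FPKM, sequenced fragments scaled for transcript length and library size. Their total still ranged from 295541 to 409889 between libraries. A trend with transcript length that differed between libraries also remained, as given below, and it limits comparisons between genes of different length. Levels are given as the mean ± SD of the 3 mice.

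Sodium pumps exchange intracellular sodium for extracellular potassium at the expense of ATP and maintain the ion gradients on which neuronal excitability and transporter activity depend. Each pump joins a catalytic subunit to a glycosylated beta subunit, which the catalytic subunit needs to fold and to reach the cell surface. Plasma membrane calcium pumps export calcium from the cytosol. They are activated when calmodulin binds their carboxyl-terminal tail, which alternative splicing changes.

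Mouse 3 stood apart from the other mice across the whole table. Between 1.31 and 2.02 gigabases lay on transcripts per library, estimated as coverage multiplied by length. Genes were tested where their mean reached 1 FPKM, and of these 13001 genes, 3310 differed between the 3 mice (limma moderated F-test, Benjamini-Hochberg adjusted p under 0.05), whereas 1 gene differed between mice 1 and 2. The deviation of the tested genes from their mean over all libraries was positively related to transcript length in all 6 libraries of mice 1 and 2 (Spearman's rho across genes 0.18 to 0.50) and negatively in both libraries of mouse 3 (rho −0.36 and −0.58). These deviations balance out over the libraries, so the positive and negative relations are not separate observations. In the contrast of mouse 3 with the mean of mice 1 and 2, 20.4% of the tested genes were higher and 17.5% lower. Marker genes of some cell types moved as well. All 5 astrocyte markers were higher in mouse 3, with a summed level of 523 to 559 FPKM against 346 to 368 FPKM in the other 6 libraries. Of the 5 oligodendrocyte markers, 3 were higher, with a sum of 3833 to 4707 FPKM against 2027 to 2249 FPKM. The largest part of that sum was Mbp, with means of 1288, 1322 and 3166 FPKM in mice 1, 2 and 3. Mag and Cnp did not pass. Of the 7 neuronal markers 4 were lower and none was higher, with a sum of 1522 to 1614 FPKM against 1791 to 1941 FPKM. The largest part of that sum was Snap25, at a mean of 1056 FPKM, which did not pass. Fewer markers passed in the other lists. In mouse 3, 1 of 4 microglial (Cx3cr1), 1 of 4 endothelial (Cldn5) and 1 of 5 blood genes (Hbb-bt) were higher, 1 of 5 choroid plexus genes (Kl) was lower, and of 5 cerebellar genes Pcp2 was higher and Calb1 lower. All 40 markers had a mean of 1 FPKM or more. The marker values are as deposited, and the part of the length trend in them was not tested. In bulk tissue, fewer cells of a type and less RNA per cell cannot be told apart.

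Only Atp2b2 and Atp2b4 had more than 1 transcript in the table. The coding bases of the exon in which the Atp2b4 transcripts differ are given here, as are the bases before the start of each Atp2b2 transcript. Atp2b4 lies on the minus strand of chromosome 1 (mm10, 133702674 to 133753747). Its transcripts NM_001167949 (8292 nucleotides) and NM_213616 (8101 nucleotides) are identical except for 1 cassette exon of 191 bases, chr1:133711632-133711822, which is present in NM_001167949. In calcium pump genes, inclusion at this carboxyl-terminal splice site is known to shift the reading frame and to give the variant called a, and skipping gives the variant called b, which keeps the full calmodulin-binding region. In GENCODE vM21, the exon adds 186 coding bases before a stop codon, so that NM_001167949 encodes 1166 amino acids and NM_213616 encodes 1205. The coding bases of the exon are shown 5′ to 3′ with the stop codon in capitals.
Atp2b4 cassette exon in NM_001167949: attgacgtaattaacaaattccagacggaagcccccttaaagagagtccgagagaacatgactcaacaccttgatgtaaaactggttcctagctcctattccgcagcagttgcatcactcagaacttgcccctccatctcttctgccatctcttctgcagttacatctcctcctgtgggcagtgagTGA

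Atp2b2 lies on the minus strand of chromosome 6 (mm10, 113745668 to 114042080). Its transcripts have the same 19 coding exons in GENCODE vM21 and differ in their 5′ exons and start sites. Both end at position 113745668 in the table, whereas in GENCODE vM21 NM_009723 ends at 113743831 and NM_001036684 at 113745669. NM_009723 (7094 nucleotides) starts at position 114042080, and NM_001036684 (6905 nucleotides) starts at position 113891376. The 250 bases before each start, taken from RefSeq (GRCm38.p6), are shown because the forms have separate starts. These bases lie outside the transcript that starts there and were not measured, and the 5′ exons themselves are not shown. For the second, the RefSeq start lies 163 bases before the start in the table. Capitals mark the GC box GGGCGG on either strand.
Atp2b2 before the distal start of NM_009723, chr6:114042081-114042330: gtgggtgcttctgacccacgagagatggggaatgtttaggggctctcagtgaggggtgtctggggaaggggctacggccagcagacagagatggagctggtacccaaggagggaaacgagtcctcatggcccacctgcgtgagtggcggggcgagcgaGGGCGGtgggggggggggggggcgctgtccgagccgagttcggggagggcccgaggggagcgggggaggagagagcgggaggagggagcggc
Atp2b2 before the proximal start of NM_001036684, chr6:113891540-113891789: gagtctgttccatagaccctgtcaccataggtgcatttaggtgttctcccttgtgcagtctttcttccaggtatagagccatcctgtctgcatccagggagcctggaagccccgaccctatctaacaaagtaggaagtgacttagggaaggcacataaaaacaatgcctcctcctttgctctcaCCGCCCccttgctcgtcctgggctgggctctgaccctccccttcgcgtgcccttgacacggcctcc
The distal window holds 16 CG dinucleotides and 69.6% G or C, and the proximal window holds 6 and 55.6%. Over all 32851 promoter windows of this length, the medians were 6 CG dinucleotides and 52.4% G or C. Each Atp2b2 window shown holds 1 match to GGGCGG, and 32.7% of all windows hold 1 or more. Neither holds the TATA box TATAAA on either strand, which 12.4% of all windows do. A further RefSeq start of Atp2b2, at position 113934681, lies 43305 bases from the nearest start in the table and is not shown. Its window holds 6 CG dinucleotides, 52% G or C and no match to GGGCGG or TATAAA.

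Among the sodium pump beta subunits, Atp1b1 was the most abundant at 553 ± 43.2 FPKM, ranking 51st of the 24343 genes. It encodes the beta1 subunit, the main beta subunit of neurons. Its levels were 577, 595 and 597 FPKM in the libraries of mouse 1, 559, 559.7 and 572 FPKM in those of mouse 2, and 483 and 528 FPKM in those of mouse 3. Both libraries of mouse 3 lay below the other 6. An antisense gene, Nme7, has an exon that overlaps Atp1b1 and was at 6.59 ± 0.80 FPKM. Since no source used here states the strand setting, reads from the overlapping part cannot be told apart.

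Atp1b2 encodes the beta2 subunit, first known as an adhesion molecule on glia, and stood at 222 ± 14.3 FPKM. Its levels were 210.5, 211 and 219.9 FPKM in mouse 1, 213, 213 and 214 FPKM in mouse 2, and 238 and 238 FPKM in mouse 3. The libraries of mice 1 and 2 lay close together and both libraries of mouse 3 lay above them. With libraries scaled to the same total, the log2 difference of mouse 3 changed sign (−0.14) and did not pass. Atp1b3, which encodes the more widely distributed beta3 subunit, had 59.4 ± 11.8 FPKM. It was measured at 51.6, 56.7 and 54.0 FPKM in mouse 1, at 44.7, 56.0 and 53.1 FPKM in mouse 2, and at 65.6 and 80.2 FPKM in mouse 3. Both libraries of mouse 3 again lay above the others, and the libraries of mouse 2 differed among themselves more than its mean differed from that of mouse 1.

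**Figure D1:**
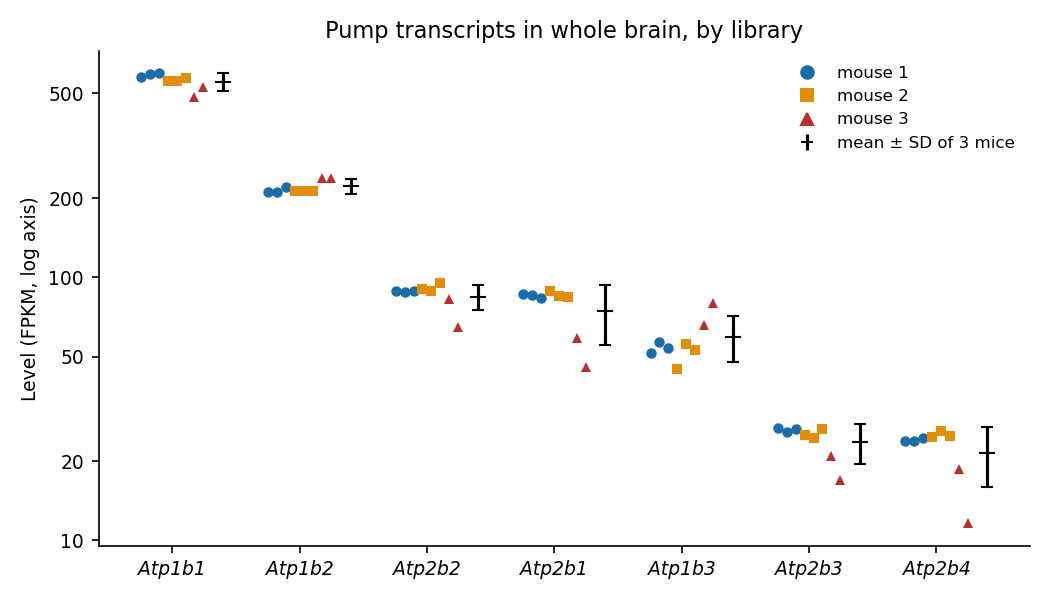
Levels of the 7 pump genes in each library, in FPKM on a log axis, ordered by mean, with 1 symbol per library coloured by mouse and the mean ± SD of the 3 mice in black. Mouse 3 lies below the other libraries for Atp1b1 and the 4 calcium pumps and above them for Atp1b2 and Atp1b3. With libraries scaled to the same total, the log2 difference of Atp1b2 was −0.14 and did not pass.

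Among the calcium pumps, Atp2b2 and Atp2b1 were the most abundant. Atp2b2, which encodes a fast pump enriched in neurons, Purkinje cells among them, and is needed for hearing and balance, had 84.5 ± 9.42 FPKM. It stood at 88.4, 87.6 and 89.0 FPKM in mouse 1, at 90.2, 89.0 and 95.0 FPKM in mouse 2, and at 82.9 and 64.6 FPKM in mouse 3. Library 2 of mouse 3 was well below every other library.

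Atp2b1, the most widely expressed calcium pump across tissues, had 74.5 ± 19.3 FPKM. Its levels were 86.5, 85.7 and 83.4 FPKM in mouse 1, 88.9, 85.0 and 84.1 FPKM in mouse 2, and 58.6 and 45.8 FPKM in mouse 3. The 6 libraries of mice 1 and 2 lay between 83.4 and 88.9 FPKM, and both of mouse 3 lay far below them.

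Atp2b3, a further pump enriched in neurons, on the X chromosome (73503086 to 73573270), had 23.6 ± 4.04 FPKM. It was at 26.8, 25.8 and 26.6 FPKM in mouse 1, at 25.1, 24.4 and 26.6 FPKM in mouse 2, and at 20.9 and 17.0 FPKM in mouse 3. Atp2b4 encodes the pump that is also abundant in red blood cells and sperm, and had 21.5 ± 5.52 FPKM. It was measured at 23.8, 23.9 and 24.4 FPKM in mouse 1, at 24.7, 26.1 and 24.9 FPKM in mouse 2, and at 18.6 and 11.6 FPKM in mouse 3. For both genes the 2 libraries of mouse 3 were the lowest of the 8.

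All 7 genes ranked in the upper part of the table, from 51st for Atp1b1 through 220th for Atp1b2 to 3136th for Atp2b4. The coefficient of variation between mice was 6.45% for Atp1b2 and 7.81% for Atp1b1, and between 11.1% (Atp2b2) and 25.9% (Atp2b1) for the others. The deposited confidence bounds, which describe the estimate within 1 library, extended 2.02% to 7.07% of the value to each side (the mean of both sides) for the 5 genes with 1 transcript.

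In order of level, neighbours were not all separated by more than their spread. Atp1b1 exceeded Atp1b2 in 8 of 8 libraries, by 1.32 ± 0.20 on the log2 scale (a ratio of 2.49). Atp1b2 exceeded Atp2b2 in 8 of 8 libraries, by 1.40 ± 0.26. Atp2b2 exceeded Atp2b1 in 8 of 8 libraries, but by 0.21 ± 0.25, a difference smaller than its SD between mice. Atp2b1 exceeded Atp1b3 in the 6 libraries of mice 1 and 2 and was lower in both of mouse 3, with a log2 ratio of 0.31 ± 0.69. Atp1b3 exceeded Atp2b3 in 8 of 8 libraries, by 1.33 ± 0.53. Atp2b3 and Atp2b4 were close, with a log2 ratio of 0.17 ± 0.18 and Atp2b3 the higher in 7 of 8 libraries. The order was described and not tested, and the part of the length trend in it was not tested either.

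The make-up of both families was similar in mice 1 and 2 and differed in mouse 3. Of the summed level of the 3 beta subunits, 834 ± 21.3 FPKM, Atp1b1 made up 66.2 ± 3.79%, Atp1b2 26.6 ± 2.27% and Atp1b3 7.13 ± 1.54%. The share of Atp1b1 was 67.6% to 69.0% in the libraries of mice 1 and 2 and 61.4% and 62.4% in those of mouse 3. The summed level itself was 787 and 846 FPKM in mouse 3, within or just below the 816 to 871 FPKM of the other libraries. Of the summed level of the 4 calcium pumps, 204 ± 38.2 FPKM, Atp2b2 made up 41.9 ± 3.70%, Atp2b1 36.1 ± 3.03%, Atp2b3 11.6 ± 0.42% and Atp2b4 10.4 ± 0.92%. Here the sum was 223 to 231 FPKM in the 6 libraries of mice 1 and 2 and fell outside that range in mouse 3, at 181 and 139 FPKM. The share of Atp2b1 was 36.5% to 38.8% in mice 1 and 2 and 32.3% and 32.9% in mouse 3, and that of Atp2b2 39.2% to 41.2% against 45.8% and 46.5%.

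**Figure D2:**
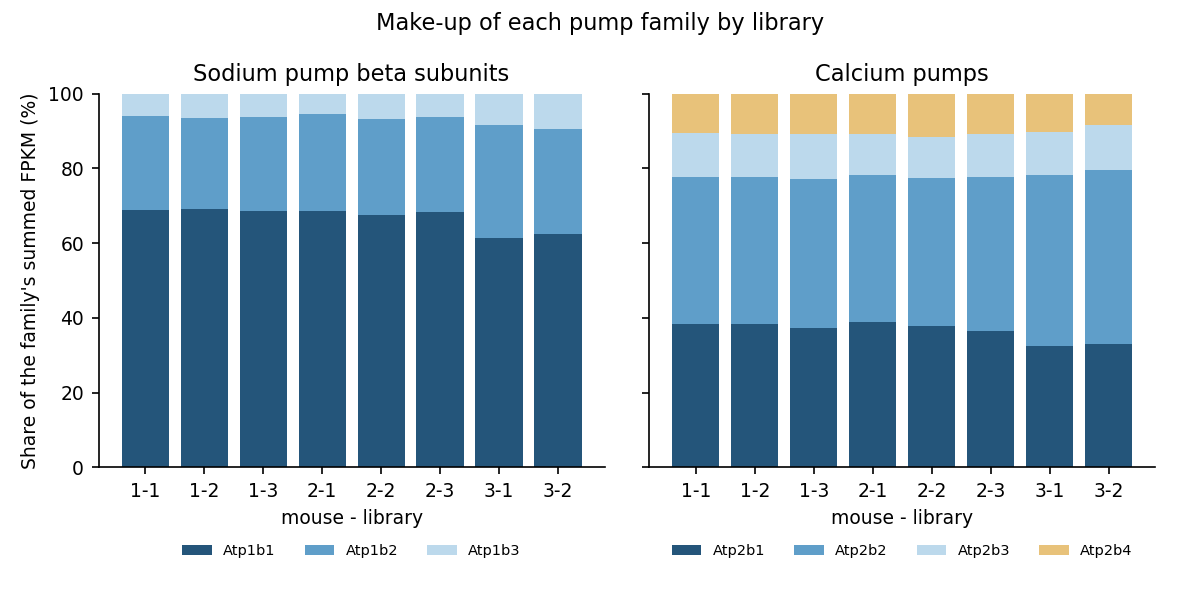
Share of each gene in the summed FPKM of its family, in percent, for each library (mouse number, then library number). Atp1b1 takes 67.6% to 69.0% of the beta subunits in mice 1 and 2 and 61.4% and 62.4% in mouse 3, and Atp2b2 takes its largest share of the calcium pumps in mouse 3.

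For Atp2b4, the form with the cassette exon was the major one. NM_001167949 was measured at 20.5, 22.3 and 19.6 FPKM in mouse 1, at 20.02, 21.5 and 22.8 FPKM in mouse 2, and at 17.8 and 10.1 FPKM in mouse 3. NM_213616, without the exon, was at 3.31, 1.64 and 4.84 FPKM in mouse 1, at 4.71, 4.62 and 2.06 FPKM in mouse 2, and at 0.84 and 1.58 FPKM in mouse 3. The form with the exon therefore made up 87.5 ± 3.10% of the gene, and between 80.2% and 95.5% in single libraries. The libraries of 1 mouse differed as much as the mice did, and the share did not pass the test between mice (exact permutation test on all 280 ways to group the libraries, p = 0.54, adjusted p = 0.73 over 2 shares). The confidence bounds of the minor form extended 11.7% to 30.2% to each side.

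For Atp2b2, the form from the proximal start was the major one. NM_001036684 was at 60.7, 66.1 and 58.6 FPKM in mouse 1, at 61.2, 56.5 and 67.5 FPKM in mouse 2, and at 57.1 and 45.1 FPKM in mouse 3. NM_009723, from the distal start with the window richer in CG dinucleotides, was at 27.7, 21.5 and 30.4 FPKM in mouse 1, at 28.98, 32.4 and 27.5 FPKM in mouse 2, and at 25.8 and 19.4 FPKM in mouse 3. The proximal form made up 68.9 ± 1.32% of the gene, with a range of 63.5% to 75.5% over the libraries, and its share did not pass the test between mice (exact permutation test, p = 0.73, adjusted p = 0.73). Since both transcripts share all coding exons, their reads could be assigned only from the 5′ exons, and the summed level is the firmer value.

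**Figure D3:**
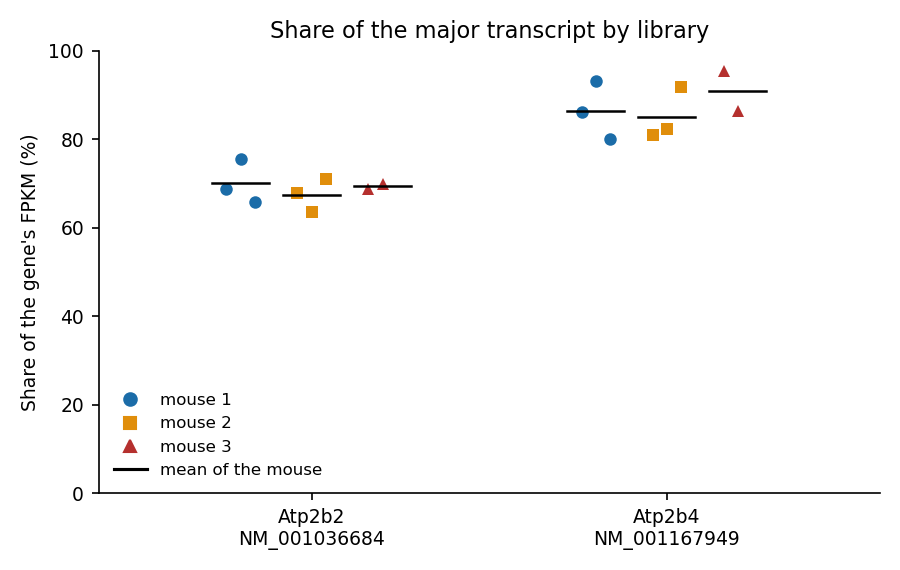
Share of the major transcript in its gene's FPKM, in percent, for Atp2b2 and Atp2b4, with 1 symbol per library and a bar at the mean of each mouse. Libraries of 1 mouse spread from 65.9% to 75.5% for Atp2b2 in mouse 1, which is wider than the distance between the means of the mice.

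Of the 7 members, 4 differed between the 3 mice (limma moderated F-test), namely Atp1b3, Atp2b1, Atp2b3 and Atp2b4, against 25.5% of all tested genes. In the contrast of mouse 3 with the mean of mice 1 and 2, all 4 calcium pumps were lower, against 17.5% of all tested genes, and of the 3 beta subunits Atp1b3 was higher, against 20.4%. None of the members differed between mice 1 and 2, with log2 differences between −0.08 and 0.07. The p-values measure the spread between libraries of a mouse, so they speak of these 3 individuals only. The contrast was chosen with earlier results known, in which mouse 3 stood apart, so its p-values are not those of an independent test.

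Atp2b1 fell by 0.71 ± 0.10 (SE) on the log2(FPKM + 1) scale in mouse 3, with a limma adjusted p of 0.0024. The change in Atp2b4 was −0.70 ± 0.14 with a limma adjusted p of 0.0075. For Atp2b3 it was −0.44 ± 0.09, with a limma adjusted p of 0.0077, and for Atp2b2 it was −0.29 ± 0.10, with a limma adjusted p of 0.044. The call for Atp2b2 was kept in 5 of 15 alternative settings. Atp1b3 was higher by 0.46 ± 0.11 in mouse 3, with a limma adjusted p of 0.014. Atp1b1 (−0.19 ± 0.07, limma adjusted p = 0.060) and Atp1b2 (0.16 ± 0.07, limma adjusted p = 0.087) did not pass, although their libraries did not overlap between mouse 3 and the others. Of the 7 members, 5 had both libraries of mouse 3 below all other libraries, against 21.7% of all tested genes. The libraries of mouse 3 lay above all others for 2 of the 7, against 26.5%. Taken by single transcripts, where 7.17% of 16436 passed the F-test, 1 of the 9 member transcripts passed, that of Atp2b1 (limma adjusted p = 0.034). In the contrast of single transcripts, those of Atp2b1 and Atp2b3 were lower in mouse 3, against 9.28% of all transcripts, and that of Atp1b3 was higher, against 11.5%.

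The size of these differences also varied with the treatment of transcript length and of single libraries. The calcium pump transcripts are 6748 to 8292 nucleotides long and those of the beta subunits 1831 to 2959 nucleotides. The 676 tested genes of 6500 to 8500 nucleotides had a median difference of −0.24 in mouse 3, and 45.7% of them were lower, whereas the 4530 genes of 1500 to 3000 nucleotides had a median of 0.08. With the trend against length removed from each library, 3 members passed the F-test, against 20.2% of all genes. The difference was then −0.49 ± 0.07 for Atp2b1, −0.45 ± 0.10 for Atp2b4, −0.23 ± 0.06 for Atp2b3, 0.30 ± 0.07 for Atp1b3, −0.22 ± 0.06 for Atp1b1 and 0.17 ± 0.06 for Atp1b2. In the contrast, 4 members were then lower, against 15.7% of all genes, with Atp1b1 now among them (limma adjusted p = 0.031). Atp2b2, at −0.08 ± 0.07, no longer passed (limma adjusted p = 0.39). Without library 2 of mouse 3, none of the members passed the F-test, against 0.969% of all genes, and Atp2b1 and Atp2b4 alone were lower in the contrast, against 5.55%, while none was higher, against 5.93%. Mouse 3 was then a single library, which the fit assumes to vary like those of mice 1 and 2. The difference was −0.54 for Atp2b1, −0.38 for Atp2b4, −0.29 for Atp2b3, −0.11 for Atp2b2 and 0.32 for Atp1b3 without library 2. Without library 1 it was −0.89, −1.02, −0.58, −0.47 and 0.60 for the same genes. With libraries scaled to the same total, the median difference of all genes was −0.26. On that scale 5 members passed the F-test, against 42.3% of all genes. Atp1b1 and the 4 calcium pumps were lower, against 44.2%, and none was higher, against 7.88%. There Atp1b2 had the opposite sign (−0.14), and Atp1b3 (0.17) no longer passed. Most of the listed neuronal, astrocyte and oligodendrocyte markers moved with the same mouse, and their part in these values was not tested.

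**Figure D4:**
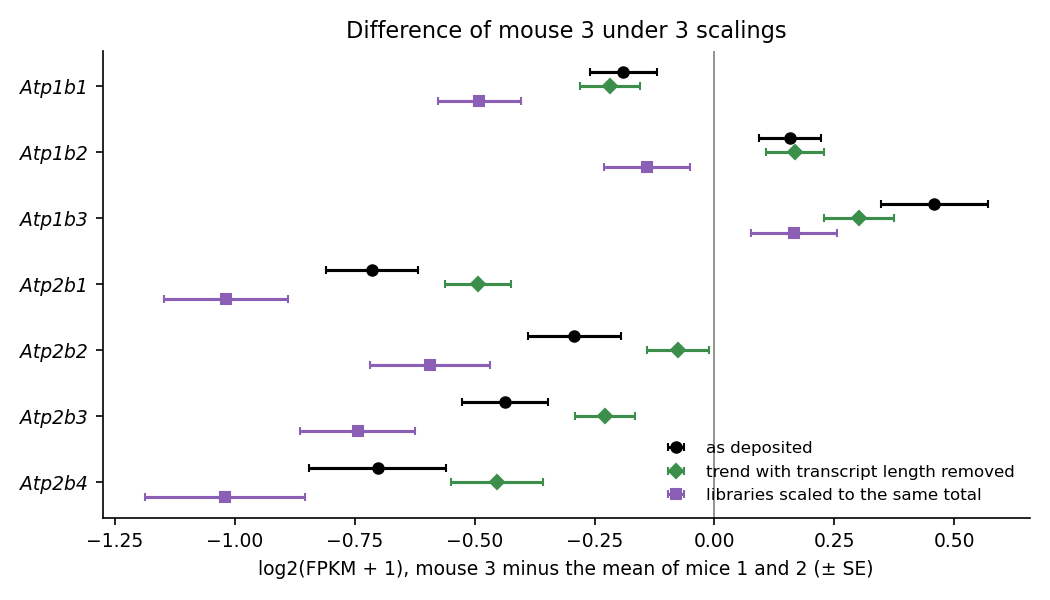
Difference of mouse 3 from the mean of mice 1 and 2 on the log2(FPKM + 1) scale for each gene, with its SE, for the values as deposited, with the trend against transcript length removed, and with libraries scaled to the same total. Atp2b1 and Atp2b4 are below 0 in all 3, Atp2b2 comes to −0.08 once the length trend is removed, and Atp1b2 changes sign with the last scaling.

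**Figure D5:**
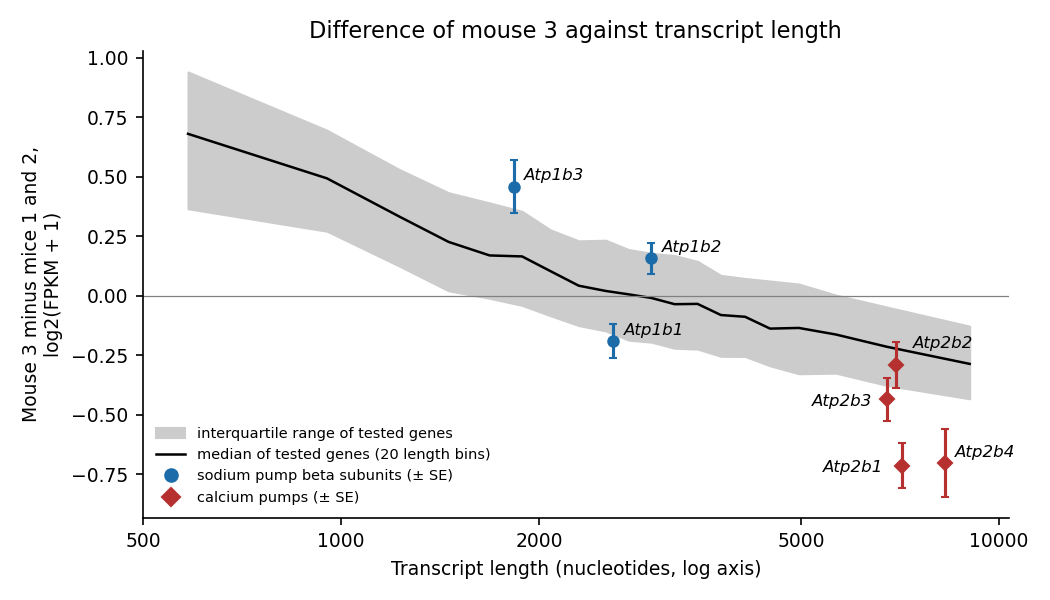
Difference of mouse 3 from the mean of mice 1 and 2, log2(FPKM + 1), against transcript length in nucleotides on a log axis. The black line and grey band give the median and the interquartile range of the 13001 tested genes in 20 length bins, and symbols with SE give the members, of which Atp2b2 and Atp1b2 lie within the band, Atp1b3 lies above it, and Atp1b1, Atp2b3, Atp2b1 and Atp2b4 lie below it.

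Atp1b4, a further member of the beta subunit family, was too low to be tested, at 0.0024 FPKM. Of the small FXYD proteins that adjust the kinetics of the sodium pump, 6 of 7 genes were tested, and Fxyd4 was listed at 0 in all libraries. Fxyd1, or phospholemman, was the highest at 56.6 ± 17.0 FPKM, and was 42.5 to 76.3 FPKM in single libraries. It was higher in mouse 3 by 0.70 ± 0.08, as was the low Fxyd3 (1.09 ± 0.80 FPKM, by 0.93 ± 0.31), while none of the 6 was lower. Over all tested genes, 20.4% were higher and 17.5% lower. The median difference of the list was 0.40. With the length trend removed, Fxyd1 had the opposite sign (−0.05) and Fxyd3 (0.15) no longer passed. The call for Fxyd3 was also lost with libraries scaled to the same total, a pseudocount of 0.1, no filter or library number as a block, and without either library of mouse 3. Of the 4 NKAIN genes, whose proteins bind the beta1 subunit, Nkain4 was the highest at 30.9 ± 15.4 FPKM and was higher in mouse 3 by 1.12 ± 0.20, or by 0.64 with the length trend removed. Nkain3, at 1.10 ± 0.32 FPKM, was lower by 0.35 ± 0.09. The median difference of the 4 was 0.07.

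Plasma membrane calcium pumps are held in complexes with the immunoglobulin proteins basigin and neuroplastin, which act as their auxiliary subunits. Bsg stood at 278 ± 52.1 FPKM and Nptn at 237 ± 4.27 FPKM, each above the mean summed level of the 4 pumps. In library 1 of mouse 2 both were below that sum (198 and 221 against 229 FPKM). Bsg was higher in mouse 3 by 0.44 ± 0.11, and Nptn did not pass (0.01 ± 0.08). The call for Bsg was lost with the length trend removed (0.17) and with libraries scaled to the same total (0.14), where Nptn was lower (−0.29, limma adjusted p = 0.019). Of the 5 other calcium pump genes, of the endoplasmic reticulum and the Golgi, 3 were tested and Atp2a2 was the highest at 141 ± 28.1 FPKM. Its difference in mouse 3 was −0.55 ± 0.11, or −0.34 without library 2 of that mouse, and it passed in both. Neither of the other two passed, and the median difference was −0.23.

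Of the sodium-calcium exchangers, which export calcium by means of the sodium gradient, 7 of 9 genes were tested, 4 were lower in mouse 3, against 17.5% of all genes, and none was higher. Their median difference was −0.36, against 0.02 for all genes. Slc24a2, which also uses the potassium gradient, was the highest at 47.9 ± 10.5 FPKM and was lower by 0.59 ± 0.09. Slc8a2 had 37.5 ± 6.06 FPKM and a difference of −0.43 ± 0.12, Slc8a1 had 11.4 ± 2.95 FPKM and −0.67 ± 0.12, and Slc8a3 had 6.42 ± 0.89 FPKM and −0.30 ± 0.08. With the length trend removed, the differences were −0.29 for Slc24a2, −0.29 for Slc8a1 and −0.33 for Slc8a2, and Slc8a3 (−0.17) no longer passed. Without library 2 of mouse 3, they were −0.44 for Slc24a2, −0.40 for Slc8a1 and −0.19 for Slc8a2, which no longer passed. The contrast called 10 genes of these lists, where 20.4% of all tested genes were higher and 17.5% lower. For those not given above, the differences without library 2 of mouse 3 kept their sign. They were 0.70 for Fxyd1, 1.00 for Fxyd3, −0.24 for Nkain3, 0.90 for Nkain4, 0.38 for Bsg and −0.24 for Slc8a3.

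The genes most alike to each member over the 8 libraries were found by Pearson's r of log2(FPKM + 1) and are given as a description, since the 8 points come from 3 mice. They were Armcx1 for Atp1b1 (r = 0.994), Parpbp for Atp1b2 (0.990), Reep5 for Atp1b3 (0.998), Myt1l for Atp2b1 (0.998), Dicer1 for Atp2b2 (0.993), Khsrp for Atp2b3 (0.993) and Ppp1r9a for Atp2b4 (0.998). Myt1l, a neuronal transcription factor gene with transcripts of 7134 nucleotides on average, was at 34.4, 33.1 and 32.8 FPKM in mouse 1, at 34.9, 32.2 and 32.6 FPKM in mouse 2, and at 22.3 and 16.9 FPKM in mouse 3. Both libraries of mouse 3 were below the range of the others, as in 21.7% of all tested genes. Myt1l was chosen for its likeness to Atp2b1 over these same libraries, so this is no separate observation. Among the members themselves, the 4 calcium pumps had r between 0.916 and 0.970 with each other. Atp1b3 and Atp1b2 had r = 0.834 with each other and negative r with every calcium pump, between −0.763 and −0.938.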

How the data were processed

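The members, the gene lists and the contrast of mouse 3 with mice 1 and 2 were chosen with earlier results of these data known. RNA from whole brains was purified with an RNAqueous Micro kit, kept if its integrity score was above 8, and prepared with the Kapa mRNA HyperPrep chemistry for a NextSeq500 instrument. The submitters' processing notes name TopHat, Cufflinks and mm10, and the versions, read length and strand setting are not given in the sources used here. The authors deposited FPKM with confidence bounds for 34535 transcripts, and a coverage signal per base not scaled for library size. Depth in counts is unknown, so no counting interval was computed. The FPKM of a gene's transcripts were summed and averaged over the libraries of a mouse, then over mice. Tests used limma 3.58.1 (R 4.3.3) on log2(FPKM + 1), with Benjamini-Hochberg adjustment over genes whose mean reached 1 FPKM. This pseudocount understates the change of low genes. The fit was tested on simulated data. Transcript shares were compared by a two-sided exact permutation test. The coverage was used for depth and 1 alternative. Alternatives were a pseudocount of 0.1, no filter or a minimum of 5 FPKM, 2 other scalings, a length trend removed by lowess (span 0.3), library number as a block, and each library left out. Named genes were the members, the most alike gene of each, and list genes that were highest or called, with Nptn and Atp1b4 added, and some genes of the lists and 1 sequence are not reported here. Starts in the table count from 0 (14222 of 23140 genes had the RefSeq start after adding 1, and 733 before) and are given from 1. Promoters of Atp1b2 and Atp2b3 were not analysed here.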

Additional observations from a re-analysis of the deposited data

Results flagged for a closer look

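Over the 8 libraries of this single condition, 16 measures (levels, shares of the family and shares of transcripts) were examined for a library that stood apart from the other 7 by more than the 95% critical value of Dixon's ratio. Chance flags about 1 in 20 such groups if their values are independent. Libraries of a mouse are not, and the measures depend on each other, so that rate need not hold here. Flags were found for 2 measures. Atp2b2 was at 64.6 FPKM in library 2 of mouse 3, and the nearest library was at 82.9 FPKM (gap over range 0.603). Atp2b4 made up 8.37% of the calcium pumps in the same library, and the nearest library had 10.3% (gap over range 0.587).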

How the results depend on the processing

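The number of genes that differed between mice (3310) was 5493 with libraries scaled to the same total and 126 to 3860 with 1 library left out, the lowest without library 2 of mouse 3. With that library left out the contrast called 1492 genes, and other omissions gave up to 5493. Transcripts that differed (1179) numbered 3418 with the same total, 2357 with a minimum of 5 FPKM, 713 with a pseudocount of 0.1, and 1 to 1770 with 1 library left out. Members that differed (4) numbered 0 to 5 with 1 library left out. They numbered 2 without library 1 of mouse 1 (Atp2b1 and Atp2b4) and 1 without library 2 or library 3 of that mouse (Atp2b1). Calls fell over all tested genes too, from 3310 to 1835 without library 1 of mouse 1, 1711 without library 2 and 1635 without library 3. Members lower in mouse 3 (4) numbered 2 to 4 with 1 library left out. Members higher (1) numbered 0 to 1 with 1 library left out, 0 with the same total, and 2 without the filter, where Atp1b2 also passed. In mice 1 and 2 alone, an alternative chosen after seeing the data, 1 gene and 0 members differed. The sign turned for Atp1b2 (−0.14) with the same total, for Fxyd1 (−0.050) with the length trend removed, and for Nptn with the median ratio (−0.0105), the same total (−0.29), the length trend removed (−0.10), and without library 1 of mouse 2 (−0.0053) or library 2 of mouse 3 (−0.10), within a range of −0.10 to 0.13 with 1 library left out. The cause was not tested. With library number as a replicate block, 1 transcript and 2995 genes differed, and Atp2b2 did not pass (limma adjusted p = 0.073). The numbers did not pair the libraries, since deviations of equally numbered libraries had r of 0.0028 to 0.107. No blocked fit was made for the transcript shares, which kept their side of the threshold throughout. The contrast of Atp2b1 and of Atp2b4 passed in 15 of 15 alternatives, that of Atp2b3 in 14, Atp1b3 in 13, Atp2b2 and Atp1b1 in 5 each and Atp1b2 in 1. The F-test passed in 14 of 15 for Atp2b1, 12 for Atp2b4, 10 for Atp2b3 and 7 for Atp1b3, whose call was also lost with no filter and with a pseudocount of 0.1. Counting only the highest transcript moved the level of Atp2b2 to 58.2 FPKM. Precision is limited to 3 mice, to FPKM without read counts and, for minor transcripts, by wide bounds.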
